A study of Mus musculus with 24 samples.

Results

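The mitosis and cell division genes of the mouse lung were described across 2 genotypes and 4 exposure conditions. A list of 49 genes was taken, and each gene was represented by the probe set annotated to it alone that had the highest mean signal. Of these 49 genes, 47 had such a probe set, against 12372 genes with a probe set of their own on the whole array, and 45 passed the filter on low signals, against 11597 genes in all. Cdca8 and Espl1 had no probe set of their own, and Cdc25c and Cenpe stayed under the filter level of 52.2 on every array. Male young adult mice were used. The Tnfr+/+ mice were C57BL/6J, and the Tnfr-/- mice lack both TNF receptors through targeted alleles of Tnfrsf1a and Tnfrsf1b in every cell (B6.129S-Tnfrsf1a tm1Imx Tnfrsf1b tm1Imx/J). Each genotype breathed either filtered air or 0.3 ppm ozone (O3) without interruption for 24, 48 or 72 h, in separate chambers, and left lungs were homogenized. Each of the 8 groups held 3 mice, and the RNA of each mouse went to 1 Affymetrix MOE430A array, so 24 arrays were compared. One air group per genotype served as the control for all exposure times of that genotype, so those comparisons share their control arrays. The Tnfr-/- line carries DNA from strain 129 that the C57BL/6J controls lack, so the loss of the receptors and these segments cannot be told apart.

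Cell division is driven by the kinase Cdk1, which acts with a cyclin and a small Cks protein. Polo-like and Aurora kinases build the spindle, the chromosomal passenger complex corrects its attachments, and kinetochore proteins tie the centromeres to microtubules. The spindle checkpoint holds the anaphase-promoting complex in check until each chromosome is attached. Cdc20 then turns this ubiquitin ligase on, kinesins and microtubule-bundling proteins draw the spindle apart, and a contractile ring separates the daughter cells. Transcripts of these genes are made mainly in late S, G2 and M phase and are low in resting cells, and the adult lung has few dividing cells. In lung RNA from a whole homogenate, more dividing cells and more RNA per dividing cell cannot be told apart.

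Total signal per array ran from 14877000 to 16057700 before normalization. The Tnfr+/+ O3 72 h replicate 1 array stood apart, with a mean correlation to the other arrays of 0.909, against 0.932 to 0.947 for the others. Its ratio of 3′ to 5′ Gapdh signal was 4.45, against 0.890 to 1.74, but its actin ratio, 1.18, was within the range of the others. The Gapdh ratio also differed between groups, at 1.283 to 1.435 in Tnfr-/- air and 0.890 to 1.221 on the Tnfr-/- O3 arrays. In Tnfr+/+ lungs it was 1.311 to 1.563 in air, 1.526 to 1.738 at 24 h, and 1.055 and 1.02 on 72 h replicates 2 and 3. The part of RNA quality in the differences below was not tested. The Tnfr+/+ O3 48 h replicate 2 array had a summed signal of 2629 over 8 thymocyte markers, against 834 to 1442 on the other 23 arrays. The recombinase gene Rag1 was at 421 on it, against 1.92 to 36.8. Its sums of 9 T cell and 9 B cell markers, 2308 and 11110, were the highest too, against 883 to 1772 and 2808 to 7265. Its 12 summed alveolar macrophage markers, 37490, were also above the 13280 to 27750 of the others, by way of Fabp4, which was at 12160 against 171 to 1885. Without Fabp4 the sum of the other 11 markers was 25320, inside the 13110 to 27270 of the others. The calls that ended without either array are named below. Tnfrsf1b was lower in the Tnfr-/- arrays by one of its 2 probe sets (log2 difference -0.98 ± 0.16, standard error, in air; adjusted p = 0.0177), while the other and that of Tnfrsf1a did not pass the test. These probe sets were not placed relative to the disrupted exons.

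Promoters of cell cycle genes often carry 2 short motifs that recruit the machinery for late cell cycle transcription, the cell cycle homology region (TTTGAA or TTCGAA) and the CCAAT box of the factor NF-Y. RefSeq windows of 300 bases around the gene start, from 250 before it to 50 after it, were found for 41 of the 49 genes in mouse build GRCm38.p6, in 44 windows. TTTGAA was in 33 of the 44 windows (75%), against 17.9% of all 32851 windows of the same length. CCAAT was in 34 (77.3%), against 37.4%, and both TTTGAA or TTCGAA and CCAAT were in 31 (70.5%), against 7.52%. The TTCGAA form was in 3 windows (6.82%), against 1.56%. The E2F-type motif GCGGGAA, which marks many genes of DNA replication, was in 0 of the 44 windows, against 4.6% of all windows. Both strands were searched, and 1 member window held different motifs that share a base. The 150 bases before the start of 8 genes, whose arrays are described below, are printed 5′ to 3′ on the strand of the gene, with the motifs in capitals (ATTGG is CCAAT and TTCAAA is TTTGAA, each on the other strand). They were chosen to set genes with the motifs beside Birc5, in whose window none of the 4 motifs was found. Cdk1 lies at chr10:69352913-69353062 (minus strand), Plk1 at chr7:122159285-122159434 (plus strand), Ube2c at chr2:164769779-164769928 (plus strand) and Cdc20 at chr4:118437344-118437493 (minus strand). Cks1b lies at chr3:89418292-89418441 (minus strand), Top2a at chr11:99024190-99024339 (minus strand), Mki67 at chr7:135716380-135716529 (minus strand) and Birc5 at chr11:117849087-117849236 (plus strand).
Cdk1: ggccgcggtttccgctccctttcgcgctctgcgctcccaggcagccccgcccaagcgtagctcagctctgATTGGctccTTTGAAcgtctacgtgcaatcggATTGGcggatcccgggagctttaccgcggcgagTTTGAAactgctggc
Plk1: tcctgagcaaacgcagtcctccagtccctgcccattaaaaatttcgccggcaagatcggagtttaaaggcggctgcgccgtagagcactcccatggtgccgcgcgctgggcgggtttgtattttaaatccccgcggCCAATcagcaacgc
Ube2c: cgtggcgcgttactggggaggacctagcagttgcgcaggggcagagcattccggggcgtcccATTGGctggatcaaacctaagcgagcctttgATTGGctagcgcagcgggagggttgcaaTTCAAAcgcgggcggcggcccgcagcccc
Cdc20: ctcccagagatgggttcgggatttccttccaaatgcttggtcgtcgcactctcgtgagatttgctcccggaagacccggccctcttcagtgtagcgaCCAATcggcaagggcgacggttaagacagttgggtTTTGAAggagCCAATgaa
Cks1b: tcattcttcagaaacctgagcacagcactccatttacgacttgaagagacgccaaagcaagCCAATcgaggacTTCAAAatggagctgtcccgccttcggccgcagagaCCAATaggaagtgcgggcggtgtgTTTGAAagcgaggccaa
Top2a: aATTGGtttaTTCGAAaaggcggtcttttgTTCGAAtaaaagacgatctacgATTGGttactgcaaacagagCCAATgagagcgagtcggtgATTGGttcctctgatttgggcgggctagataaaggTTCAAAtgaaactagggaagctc
Mki67: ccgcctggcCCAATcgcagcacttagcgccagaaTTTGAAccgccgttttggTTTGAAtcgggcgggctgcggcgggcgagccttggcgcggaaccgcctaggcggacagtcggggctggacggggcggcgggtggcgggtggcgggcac
Birc5: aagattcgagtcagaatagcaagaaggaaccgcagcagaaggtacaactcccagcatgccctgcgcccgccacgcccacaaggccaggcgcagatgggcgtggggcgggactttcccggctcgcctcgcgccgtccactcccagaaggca

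The TTTGAA of Plk1 lies after its start and so outside the printed stretch. None of the 4 motifs was found in the windows of Melk, Birc5, Mad2l1, Nuf2, Nusap1, Tacc3 and Ncaph. Of the 14 genes that rose in every late comparison described below, 12 had a window, and 10 of these held TTTGAA and 9 held CCAAT. Of the 10 genes that passed the test in no late comparison, 8 had a window, and 5 of these held TTTGAA and 5 held CCAAT. A match describes the letters of the window and does not show that a factor binds there.

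The mitosis genes were higher after 48 h and 72 h of O3 in both genotypes and not after 24 h. For each array, the log2 ratio of each of the 45 genes to its mean in the Tnfr+/+ air group was taken, and the median over genes was used as a description of the array. In Tnfr+/+ lungs this median was -0.02 to 0.07 on the air arrays, -0.04 to 0.18 at 24 h, 0.65 to 0.88 at 48 h and 1.15 to 1.55 at 72 h. Corresponding values in Tnfr-/- lungs were -0.28 to -0.12 in air, -0.14 to -0.07 at 24 h, 0.62 to 0.99 at 48 h and 1.21 to 1.41 at 72 h. The 48 h and 72 h arrays thus lay apart from all air and 24 h arrays, and the 72 h arrays above the 48 h arrays of the same genotype. On single arrays, 4 to 18 of the 45 genes were above all 6 air arrays at 24 h, 33 to 40 at 48 h and 37 to 42 at 72 h. The 18 was on Tnfr+/+ O3 24 h replicate 2, and the other 24 h arrays had 4 to 11. The share of all probe sets above all 6 air arrays was not computed, so no rise is read from these counts at 24, 48 or 72 h. The Tnfr+/+ O3 48 h replicate 2 array, which carried thymocyte markers, had a median of 0.85, between the 0.88 and 0.65 of the other arrays of its group.

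**Figure D1:**
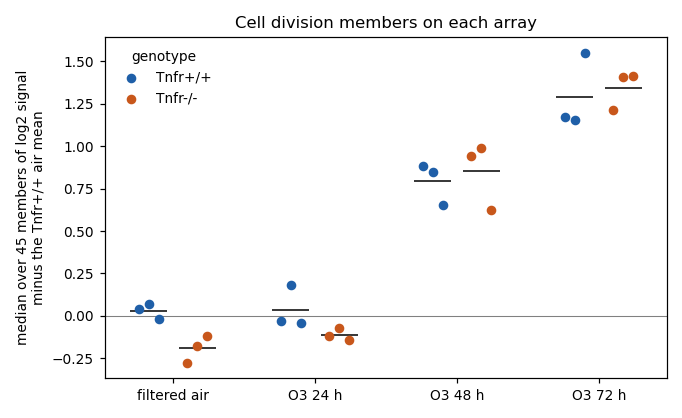
Median over 45 mitosis and cell division genes of the log2 ratio to the Tnfr+/+ air mean, 1 point for each of the 24 arrays, by genotype and exposure. The air and 24 h arrays lie between -0.28 and 0.18, the 48 h arrays between 0.62 and 0.99 and the 72 h arrays between 1.15 and 1.55.

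The genes were then compared one by one with air. Each gene was set against its own genotype's air group by limma over all 24 arrays. A gene was taken to have risen or fallen where its Benjamini-Hochberg adjusted p over 20537 probe sets was under 0.05. In Tnfr+/+ lungs, 14 of the 45 genes rose at 48 h, against 0.901% of all probe sets tested, and 29 rose at 72 h, against 1.84%. In Tnfr-/- lungs, 26 rose at 48 h and 34 at 72 h, against 2.6% of all probe sets at each time. No member fell in these 4 comparisons, where 0.273%, 1.26%, 1.24% and 1.36% of all probe sets fell. The median log2 difference of the 45 genes was 0.80 and 1.29 at 48 h and 72 h in Tnfr+/+ lungs and 1.00 and 1.58 in Tnfr-/- lungs, while the medians over all probe sets were between -0.03 and 0.00. All 3 exposed arrays were above all 3 air arrays for 32 and 38 of the 45 genes in Tnfr+/+ lungs, against 8.32% and 9.53% of all probe sets, and for 36 and 39 genes in Tnfr-/- lungs, against 15.6% and 12.6%. Of the 45 genes, 5 (Melk, Bub1, Bub1b, Nuf2 and Kif20a) were under the filter level on all 6 air arrays and entered the test through exposed arrays. Among the other 40, the counts were 14 and 26 in Tnfr+/+ and 21 and 29 in Tnfr-/- lungs, with median differences of 0.74, 1.14, 0.92 and 1.33.

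In each genotype, every gene that rose at 48 h also rose at 72 h. The 14 genes that rose at both times in both genotypes were Cks1b, Plk1, Incenp, Birc5, Mad2l1, Cdc20, Ube2c, Cdca3, Kif22, Tpx2, Prc1, Anln, Top2a and Mki67. Another 15 genes passed the test in Tnfr+/+ lungs at 72 h but not at 48 h, and 8 did so in Tnfr-/- lungs. The 10 genes that passed in none of these 4 comparisons were Nek2, Bub3, Ttk, Kif11, Kif2c, Tacc3, Smc2, Smc4, Ncaph and Foxm1. Differences below 0 were found for Bub3 and Tacc3 (-0.03 and -0.03) at 48 h in Tnfr+/+ lungs, for Nek2, Kif2c, Tacc3 and Smc4 (-0.08 to -0.01) at 48 h in Tnfr-/- lungs and for Kif2c (-0.30) at 72 h in Tnfr-/- lungs, and none of them passed. The count of 14 at 48 h in Tnfr+/+ lungs was 8 without replicate 1 of that group and 9 without replicate 2, the array with thymocyte markers, when Birc5, Mad2l1, Cdc20, Prc1 and Top2a no longer passed (adjusted p = 0.0552 to 0.1). The count of 29 at 72 h in Tnfr+/+ lungs was 26 without replicate 1 of that group, the array that stood apart, when Melk, Cenpa, Ect2 and Racgap1 no longer passed (adjusted p = 0.0548 to 0.0903) and Smc2 did. Without the same array the 14 at 48 h became 17, since it enters that test through the shared residual spread. With the 6 arrays of a comparison fitted alone, limma called 0 and 2 genes at 48 h and 72 h in Tnfr+/+ lungs and 19 and 23 in Tnfr-/- lungs, against 0.117%, 0.0682%, 2.61% and 1.08% of all probe sets. These fits took in 31, 35, 35 and 37 genes at an unadjusted p under 0.05, against 9.03%, 10.8%, 23.6% and 18.1% of all probe sets.

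**Figure D2:**
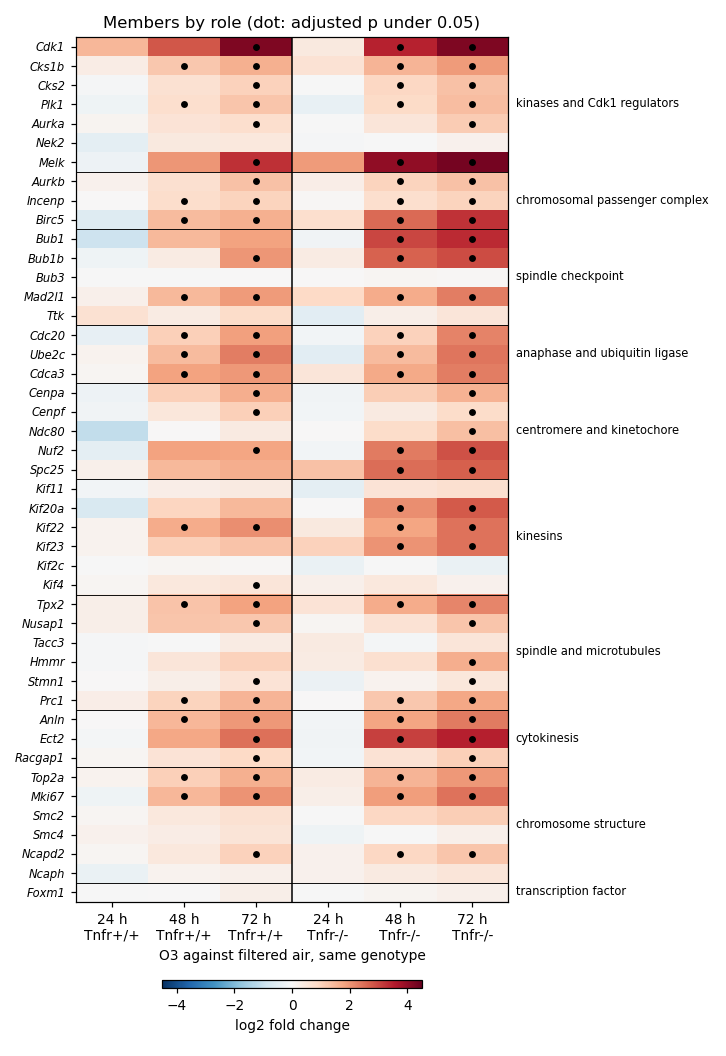
Heat map of the log2 difference from air of the same genotype (colour) for each of the 45 genes (rows, grouped by role) at 24, 48 and 72 h of O3 in Tnfr+/+ and Tnfr-/- lungs (columns), with a dot where the adjusted p was under 0.05. The 24 h columns hold 0 dots, and the 48 h and 72 h columns hold 14 and 29 in Tnfr+/+ and 26 and 34 in Tnfr-/- lungs. The colours of Melk, Bub1, Bub1b, Nuf2 and Kif20a, of Cdk1 in Tnfr+/+ and of Ndc80 and Ect2 in Tnfr-/- lungs are fitted values over air arrays under the filter level.

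Among the kinases and regulators of Cdk1, 7 genes were tested, of which 2 rose at 48 h and 6 at 72 h in Tnfr+/+ lungs, and 5 and 6 in Tnfr-/- lungs. Cdk1 (probe set 1448314_at), the kinase that starts mitosis, had signals of 37.7, 29.6 and 33.1 on the Tnfr+/+ air arrays, 31.1, 228 and 118 at 24 h, 530.1, 342 and 70.1 after 48 h and 618, 512 and 749.8 after 72 h. On the Tnfr-/- arrays its signals were 33.5, 28.6 and 60.5 in air, 217, 26.1 and 25.4 at 24 h, 347, 669.8 and 334 after 48 h and 703, 699 and 733 after 72 h. The air signals were near or under the filter level, the 24 h arrays were widely spread, and both late groups lay above air in each genotype. Where a group was under the filter level on all 3 of its arrays, its level is only bounded, and the difference is given as at least the ratio of the other group's mean of log2 signals to the filter level, beside the adjusted p of the fit. On this basis Cdk1 was at least 11.9-fold higher at 72 h than in air in Tnfr+/+ lungs (adjusted p = 0.00543) and at least 4.47-fold at 48 h, where it did not pass (adjusted p = 0.0958). In Tnfr-/- lungs it rose by 3.46 ± 0.78 (log2 difference ± standard error) and 4.20 at 48 h and 72 h (adjusted p = 0.0161 and 0.00394). The 48 h call ended without Tnfr-/- air replicate 1 or 2 or 48 h replicate 2 (adjusted p = 0.0569 to 0.0872). Since the model shares the residual spread, a gene has the same standard error in each comparison with air, which is given once.

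Cks1b (probe set 1416698_a_at), a small subunit that binds Cdk1 and helps it find its substrates, was well above the filter level on each array. Its signals were 474, 430.3 and 469.7 in Tnfr+/+ air, 567, 649.9 and 524 at 24 h, 1183, 1172 and 842 after 48 h and 1293, 1284 and 1615 after 72 h. The Tnfr-/- signals were 377, 456 and 446 in air, 757, 569.9 and 697 at 24 h, 1267, 1430 and 1043 after 48 h and 1768, 1685 and 1405 after 72 h. All exposed arrays, those of 24 h included, lay above the air arrays of their genotype. The log2 rise at 48 h and 72 h was 1.20 ± 0.16 and 1.60 in Tnfr+/+ lungs (adjusted p = 0.000723 and 1.35e-05) and 1.54 and 1.92 in Tnfr-/- lungs (adjusted p = 2.21e-05 and 1.31e-06). At 24 h in Tnfr-/- lungs it was 0.66 with an adjusted p of 0.0591, which missed the threshold. Its paralog Cks2 ranged from 242 to 345 over the 6 air arrays and from 528 to 725 over the 6 arrays of 72 h, and it rose by 1.05 ± 0.18 in Tnfr+/+ and 1.31 in Tnfr-/- lungs at 72 h (adjusted p = 0.00293 and 0.00023).

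Plk1 (probe set 1448191_at), a kinase that acts from mitotic entry to cytokinesis, varied little within groups. Signals in Tnfr+/+ lungs were 127, 149.6 and 133 in air, 130.2, 103 and 126 at 24 h, 204, 245 and 248 after 48 h and 340.5, 281 and 349 after 72 h. Those in Tnfr-/- lungs were 124, 154 and 126 in air, 125, 104 and 94.1 at 24 h, 247, 263 and 219 after 48 h and 350.3, 354 and 363 after 72 h. Air, 48 h and 72 h arrays did not overlap within either genotype. The log2 rise was 0.77 ± 0.14 and 1.24 in Tnfr+/+ lungs (adjusted p = 0.00859 and 5.29e-05) and 0.85 and 1.40 in Tnfr-/- lungs (adjusted p = 0.00155 and 7.25e-06) at 48 h and 72 h. Aurka, the Aurora kinase of the spindle poles, rose at 72 h in both genotypes, by 0.74 ± 0.17 and 1.15 (adjusted p = 0.0221 and 0.000459). Its Tnfr+/+ call ended without air replicate 1 or 2 or 72 h replicate 2 (adjusted p = 0.0529 to 0.0955). The kinase Melk was under the filter level on all 6 air arrays, at 3.40 to 11.5, and at 24.6 to 131 on the arrays of 72 h, at least 1.2-fold and 2.04-fold higher in Tnfr+/+ and Tnfr-/- lungs (adjusted p = 0.0156 and 0.00123). The Tnfr+/+ call of Melk ended without air replicate 1 or 72 h replicate 1 or 3 (adjusted p = 0.0568 to 0.0601). Nek2, a centrosome kinase, ranged from 72.3 to 140 in air and from 94.8 to 187 at 72 h, and its largest difference, 0.46, did not pass (adjusted p = 0.581).

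The chromosomal passenger complex joins the kinase Aurkb to the scaffold Incenp and the small protein Birc5 (survivin). Its 3 tested genes all rose at 72 h in both genotypes. Birc5 (probe set 1424278_a_at) had signals of 198, 180.3 and 125 in Tnfr+/+ air, 125, 163 and 66.6 at 24 h, 419, 499 and 413 after 48 h and 435, 456 and 618 after 72 h. Its Tnfr-/- signals were 55.6, 81.9 and 91.9 in air, 156, 85.8 and 146 at 24 h, 408, 512 and 408 after 48 h and 773, 545 and 846 after 72 h. The air arrays of the genotypes did not overlap, the Tnfr-/- ones being lower, while the 48 h arrays interleaved. The log2 rise at 48 h and 72 h was 1.43 ± 0.30 and 1.60 in Tnfr+/+ lungs (adjusted p = 0.0216 and 0.0061), and 2.56 and 3.25 in Tnfr-/- lungs (adjusted p = 6.2e-05 and 3.37e-06). The 48 h call in Tnfr+/+ lungs ended without any of the arrays compared except air replicate 1 (adjusted p = 0.0551 to 0.112). Incenp ranged from 180 to 207 over the 6 air arrays, from 295 to 353 over the 48 h arrays and from 322 to 432 over the 72 h arrays. Its rises were alike in size, 0.80 ± 0.14 and 0.75 at 48 h (adjusted p = 0.00565 and 0.00377). Aurkb rose by 1.00 ± 0.17 at 48 h in Tnfr-/- lungs (adjusted p = 0.00221), and in Tnfr+/+ lungs the 48 h difference of 0.71 had an adjusted p of 0.0501.

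Of the 5 spindle checkpoint genes, 1 rose at 48 h and 2 at 72 h in Tnfr+/+ lungs, and 3 at each time in Tnfr-/- lungs. Mad2l1 (probe set 1422460_at), the checkpoint protein that binds Cdc20, had signals of 73.9, 96.2 and 152 in Tnfr+/+ air, 339.6, 295 and 224 after 48 h and 365, 337 and 481 after 72 h. Its Tnfr-/- signals were 62.6, 158 and 83.5, 275, 383 and 256 and 508, 397 and 479 in the same order. Late and air arrays did not overlap, and the log2 rise was 1.46 ± 0.30 and 1.93 in Tnfr+/+ lungs (adjusted p = 0.0172 and 0.00123) and 1.68 and 2.29 in Tnfr-/- lungs (adjusted p = 0.00281 and 0.000124). In Tnfr+/+ lungs the 48 h call ended without air or 48 h replicate 1 or 2 (adjusted p = 0.0674 to 0.0947). Bub1 and Bub1b, a kinase and a kinase-like inhibitor of the anaphase-promoting complex, were under the filter level on all 6 air arrays. Bub1b had signals of 111, 50.5 and 25.04 at 48 h in Tnfr+/+ and 172, 254 and 143 in Tnfr-/- lungs, without overlap between the genotypes. It was at least 3.05-fold higher than in air at 72 h in Tnfr+/+ lungs (adjusted p = 0.0102, and 0.0613 without air replicate 3) and at least 3.53-fold and 4.26-fold at 48 h and 72 h in Tnfr-/- lungs (adjusted p = 0.000686 and 0.000228). Bub3, the partner of both, stayed level, at 1529 to 2145 in air and 1148 to 2440 at 72 h, with differences from air of -0.03 to 0.09 at the late times. Ttk (Mps1), which starts checkpoint signalling, passed the test at no time.

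The anaphase and ubiquitin ligase genes rose together, with 3 of 3 tested genes passing in each late comparison. Cdc20 (probe set 1439377_x_at), the activator of the anaphase-promoting complex, had signals of 251, 273 and 258 in Tnfr+/+ air, 194, 199.8 and 209.8 at 24 h, 532, 521 and 576 after 48 h and 1215, 739 and 936 after 72 h. Its Tnfr-/- signals were 177, 225 and 235 in air, 179, 197 and 198 at 24 h, 589, 512 and 273 after 48 h and 1141, 998 and 879 after 72 h. In both genotypes the 72 h arrays lay above the 48 h arrays and these above air, and the 24 h arrays of Tnfr+/+ lungs lay below air. The log2 rise was 1.06 ± 0.22 and 1.86 in Tnfr+/+ lungs (adjusted p = 0.0183 and 7.33e-05) and 1.04 and 2.25 in Tnfr-/- lungs (adjusted p = 0.00957 and 5.85e-06). The Tnfr+/+ call at 48 h ended without any 1 of its 6 arrays (adjusted p = 0.0536 to 0.07), and the Tnfr-/- call at 48 h without air replicate 1 or 48 h replicate 1 or 2 (adjusted p = 0.0527 to 0.0651). A second Cdc20 probe set gave 1.19 and 2.05 in Tnfr+/+ and 1.13 and 1.98 in Tnfr-/- lungs.

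Ube2c (probe set 1452954_at) is the E2 enzyme that hands ubiquitin to the anaphase-promoting complex. In Tnfr+/+ lungs its signals were 230.4, 164 and 189.9 in air, 201, 226 and 215 at 24 h, 505, 537 and 505 after 48 h and 1169, 745 and 1006 after 72 h. In Tnfr-/- lungs they were 163, 162 and 144 in air, 112, 125 and 99.7 at 24 h, 457, 502 and 314 after 48 h and 823, 904 and 735 after 72 h. Air, 48 h and 72 h arrays stood apart in both genotypes, and the Tnfr-/- arrays of 24 h were the lowest of all. Ube2c rose by 1.42 ± 0.18 and 2.31 in Tnfr+/+ lungs (adjusted p = 0.000349 and 1.15e-06) and by 1.42 and 2.39 in Tnfr-/- lungs (adjusted p = 0.000129 and 5.82e-07), which at 72 h were the smallest adjusted p-values of the list. Cdca3, which takes part in the destruction of the mitotic inhibitor Wee1, ranged from 70.9 to 134 in air and from 290.1 to 439 at 72 h. It rose by 1.95 ± 0.22 and 2.29 at 72 h (adjusted p = 6.3e-05 and 5.94e-06), while its 2 other probe sets passed the test in none of the late comparisons.

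**Figure D3:**
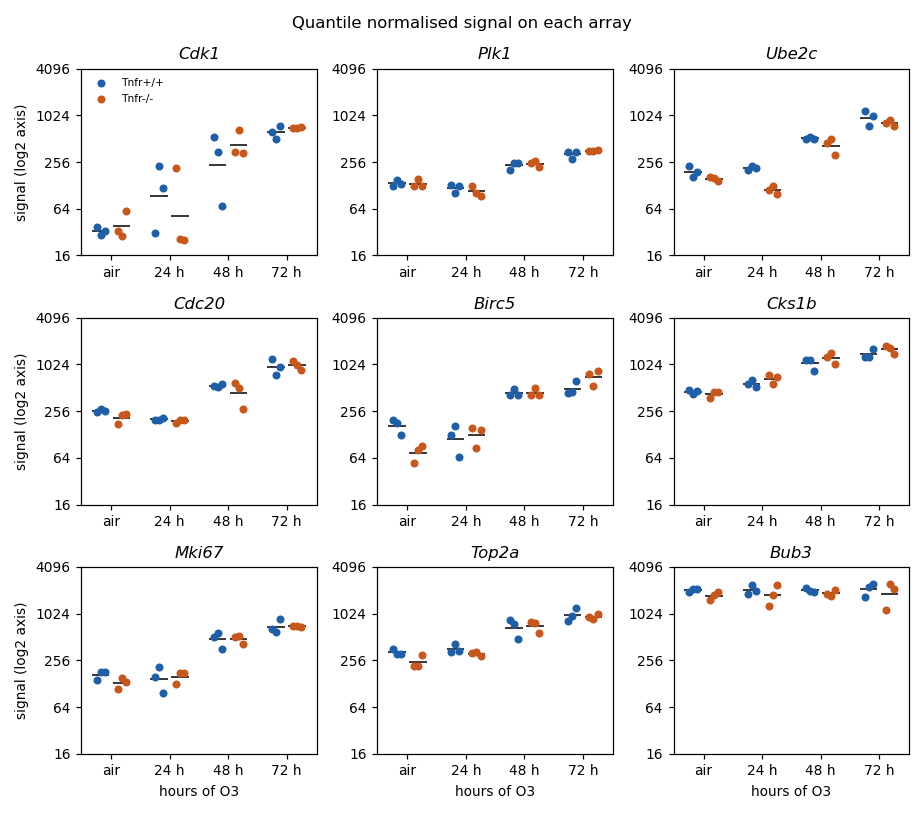
Quantile-normalized signal (log axis) of 9 of the genes on each array, by group, with the group mean as a line. Cdk1, Plk1, Ube2c, Cdc20, Birc5, Cks1b, Mki67 and Top2a are higher at 48 h and 72 h than in air, and the checkpoint gene Bub3 is level.

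Of the 5 centromere and kinetochore genes, none passed the test at 48 h in Tnfr+/+ lungs (limma), where their median log2 difference was 1.07, and 3 rose at 72 h. The Tnfr-/- counts were 2 at 48 h and 5 at 72 h. Cenpa, the histone H3 variant that marks the centromere, ranged from 51.7 to 145 in air and from 185 to 411 at 72 h, and rose by 1.64 ± 0.39 and 1.58 (adjusted p = 0.0254 and 0.0272). Both calls of Cenpa rested on single arrays, the Tnfr+/+ one ending without air replicate 3 or 72 h replicate 1 or 3 (adjusted p = 0.0779 to 0.135) and the Tnfr-/- one without any array compared except air replicate 1 (adjusted p = 0.0643 to 0.118). Cenpf, a kinetochore protein of G2 and M phase, ranged from 144 to 226 in air and from 295 to 397 at 72 h, and rose by 1.07 ± 0.17 and 0.82 (adjusted p = 0.00183 and 0.00993, the latter 0.067 without air replicate 3), though its second probe set passed in none of the late comparisons. Nuf2, Ndc80 and Spc25 are parts of the NDC80 complex, which binds microtubules. Nuf2 was under the filter level on all 6 air arrays and at least 2.64-fold and 3.78-fold higher at 48 h and 72 h in Tnfr-/- lungs (adjusted p = 0.00596 and 0.00102). In Tnfr+/+ lungs Nuf2 was at least 2.31-fold higher at 72 h (adjusted p = 0.0401), a call that ended without any array compared except 72 h replicate 1 (adjusted p = 0.0532 to 0.165). Ndc80, under the filter level on the Tnfr-/- air arrays, was at least 1.95-fold higher at 72 h in Tnfr-/- lungs (adjusted p = 0.0172, and 0.109 and 0.0881 without air replicate 3 or 72 h replicate 2), and the Tnfr+/+ log2 difference was 0.41 (adjusted p = 0.542). Its air signals were 77.3, 90.5 and 73.3 in Tnfr+/+ and 47.6, 51.4 and 25.5 in Tnfr-/- lungs, and its 72 h signals were 94.9, 95.1 and 133 and 103, 124 and 82.2. The genotypes thus did not overlap in air and overlapped at 72 h. Spc25 rose by 2.51 ± 0.61 and 2.71 in Tnfr-/- lungs (adjusted p = 0.0251 and 0.0157), with the widest air spread of the complex, 22.1 to 179 over both genotypes. Its Tnfr-/- air signals were 86.58, 22.15 and 26.67, those of replicates 2 and 3 being under the filter level, so the size of these rises is imprecise. Its 48 h call ended without any array compared except air replicate 1 (adjusted p = 0.0547 to 0.115) and its 72 h call without air replicate 2 or 3 or 72 h replicate 3 (adjusted p = 0.074 to 0.0784).

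Among the 6 kinesins, 1 rose at 48 h and 2 at 72 h in Tnfr+/+ lungs, and 3 at each time in Tnfr-/- lungs. Kif22 (probe set 1437716_x_at), which pushes chromosome arms towards the spindle equator, had signals of 103, 92.5 and 83.5 in Tnfr+/+ air, 318, 323 and 242 after 48 h and 338, 406 and 454 after 72 h. Its Tnfr-/- signals were 69.1, 68.4 and 102 in air, 302, 339 and 191 after 48 h and 372, 436 and 488 after 72 h. None of the late arrays overlapped air, and the rise was 1.65 ± 0.28 and 1.78 at 48 h (adjusted p = 0.00496 and 0.00102). Kif23 and Kif20a, motors of the central spindle, rose at both times in Tnfr-/- lungs, Kif23 by 2.04 ± 0.36 and 2.43 (adjusted p = 0.00297 and 0.000516). Kif20a, under the filter level on all 6 air arrays, was at least 1.85-fold and 2.97-fold higher (adjusted p = 0.0352 and 0.00529), and its 48 h call ended without air replicate 1 or any 48 h array (adjusted p = 0.0578 to 0.16). In Tnfr+/+ lungs both lay above air at 48 h and 72 h without overlap, and at 72 h the log2 difference of 1.29 for Kif23 and the at least 2.23-fold higher level of Kif20a missed the threshold (adjusted p = 0.0603 and 0.147). Kif4, a chromokinesin, rose in Tnfr+/+ lungs at 72 h by 0.54 ± 0.13 (adjusted p = 0.0342), against 0.20 in Tnfr-/- lungs (adjusted p = 0.488). The Tnfr+/+ call ended without air replicate 1 or 2 or 72 h replicate 3 (adjusted p = 0.108 to 0.115), and the interaction of genotype and O3 did not pass for it. Kif11, which pushes the spindle poles apart, and the microtubule depolymerase Kif2c passed in none of the late comparisons, and Kif2c was at -0.30 ± 0.32 at 72 h in Tnfr-/- lungs.

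Spindle and microtubule genes rose in 2 of 6 cases at 48 h and 4 of 6 at 72 h in Tnfr+/+ lungs, and in 2 and 5 of 6 in Tnfr-/- lungs. Tpx2, which activates Aurka on the spindle, ranged from 31.8 to 80.4 in air, from 128 to 207 at 48 h and from 223 to 306 at 72 h. It rose by 1.29 ± 0.26 and 1.82 in Tnfr+/+ lungs (adjusted p = 0.0154 and 0.000577) and by 1.67 and 2.18 in Tnfr-/- lungs (adjusted p = 0.000806 and 4.93e-05). Its 48 h call in Tnfr+/+ lungs ended without air replicate 3 or 48 h replicate 1 or 3 (adjusted p = 0.0571 to 0.0823). Prc1, which bundles the microtubules of the central spindle, ranged from 114 to 195 in air, from 249.6 to 385 at 48 h and from 367 to 567 at 72 h, and its rise at 72 h was 1.53 ± 0.22 and 1.75 (adjusted p = 0.000734 and 9.73e-05). The 48 h call of Prc1 in Tnfr+/+ lungs ended without air replicate 2 or 48 h replicate 1 or 2 (adjusted p = 0.1 to 0.148). Both genes were apart from air on each late array. Nusap1, which binds spindle microtubules, rose at 72 h in both genotypes by 1.22 ± 0.31 and 1.25 (adjusted p = 0.0364 and 0.0272), but both calls ended without any of 4 arrays, air or 72 h replicate 2 or 3 in Tnfr+/+ lungs (adjusted p = 0.0559 to 0.161) and air replicate 3 or any 72 h array in Tnfr-/- lungs (adjusted p = 0.0605 to 0.149). The hyaluronan receptor Hmmr, also a spindle protein, rose at 72 h in Tnfr-/- lungs by 1.64 ± 0.35 (adjusted p = 0.0119, and 0.0687 and 0.0682 without air replicate 2 or 72 h replicate 3). Stmn1 (stathmin), which frees tubulin from microtubules, had small rises at 72 h, 0.63 ± 0.11 and 0.50 (adjusted p = 0.00346 and 0.0128, the latter 0.0674 without 72 h replicate 3). Its signals were 2431, 2685 and 2527 in Tnfr+/+ air and 3483, 3874 and 4514 at 72 h, without overlap.

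All 3 cytokinesis genes rose at 72 h in both genotypes, though in Tnfr+/+ lungs the calls of Ect2 and Racgap1 ended without single arrays. Anln (anillin, probe set 1433543_at), the scaffold of the contractile ring, had signals of 144, 79.8 and 100.3 in Tnfr+/+ air, 362, 318 and 223 after 48 h and 335, 420.2 and 457 after 72 h. Its Tnfr-/- signals were 62.8, 97.5 and 116 in air, 325, 315 and 275 after 48 h and 460, 468 and 415 after 72 h. Late and air arrays were apart, and the log2 rise was 1.49 ± 0.26 at 48 h in Tnfr+/+ (adjusted p = 0.00569) and 1.77 in Tnfr-/- lungs (adjusted p = 0.000576). Ect2, which activates RhoA at the cell equator, rose by 2.48 ± 0.62 at 72 h in Tnfr+/+ lungs (adjusted p = 0.0348) from air signals of which 2 of 3 reached the filter level. That call ended without air replicate 2 or 3 or 72 h replicate 1 or 3 (adjusted p = 0.0548 to 0.137, the lowest without 72 h replicate 1, the array that stood apart). On the Tnfr-/- air arrays Ect2 was under the filter level, at 14.3 to 34.5, and it was at least 3.23-fold and 4.37-fold higher at 48 h and 72 h (adjusted p = 0.00721 and 0.00252). Racgap1, its partner at the central spindle, rose at 72 h by 0.89 ± 0.20 and 1.07 (adjusted p = 0.0198 and 0.0041), and its Tnfr+/+ call ended without air replicate 3 or 72 h replicate 1 or 3 (adjusted p = 0.0686 to 0.106, and 0.0735 without replicate 1).

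Chromosome structure genes were split. Mki67 (Ki-67, probe set 1426817_at), which coats mitotic chromosomes and marks cycling cells, had signals of 143, 182 and 182 in Tnfr+/+ air, 155, 211 and 97.8 at 24 h, 518, 578 and 358 after 48 h and 646, 585 and 866 after 72 h. Its Tnfr-/- signals were 109, 152 and 133 in air, 127, 175 and 175 at 24 h, 512, 530.2 and 410 after 48 h and 712, 708 and 680.3 after 72 h. The late arrays did not overlap the air and 24 h arrays, and the rise was 1.50 ± 0.24 and 2.04 in Tnfr+/+ lungs (adjusted p = 0.00322 and 8.79e-05) and 1.89 and 2.43 in Tnfr-/- lungs (adjusted p = 0.00015 and 7.25e-06). Top2a (probe set 1454694_a_at), the topoisomerase that untangles sister chromatids, had signals of 357, 307 and 307 in Tnfr+/+ air, 837, 755 and 478 after 48 h and 821, 944 and 1199 after 72 h, without overlap between the late and air arrays. On the Tnfr-/- arrays they were 219, 218 and 300.1 in air, 793, 777 and 571 at 48 h and finally 922, 879 and 1011 at 72 h, also apart. Top2a rose by 1.06 ± 0.20 and 1.60 in Tnfr+/+ lungs (adjusted p = 0.00976 and 0.000124) and by 1.54 and 1.95 in Tnfr-/- lungs (adjusted p = 0.000146 and 7.86e-06). Its 48 h call in Tnfr+/+ lungs ended without 48 h replicate 1 or 2 (adjusted p = 0.0536 and 0.0552). Of the condensin subunits, which compact the chromosomes, Ncapd2 rose in 3 of the 4 late comparisons, by 1.26 ± 0.16 at 72 h in Tnfr-/- lungs (adjusted p = 9.72e-05), and Smc2, Smc4 and Ncaph passed in none. The largest difference of these 3 was that of Smc2 at 72 h in Tnfr-/- lungs, 1.12 ± 0.31 (adjusted p = 0.0524).

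Foxm1 (probe set 1448833_at), the transcription factor that drives many late cell cycle genes, had signals of 387, 493 and 447 in Tnfr+/+ air and 515, 502 and 570.5 at 72 h, and of 364, 401 and 402 in Tnfr-/- air and 476, 467 and 409 at 72 h. Late arrays lay above air at 72 h in both genotypes, but the differences of 0.26 ± 0.13 and 0.21 did not pass (adjusted p = 0.294 and 0.435). For several of the genes that passed in none of the late comparisons, another probe set of the same gene did pass. A second set of Tacc3, a spindle protein, rose by 1.41 at 72 h in Tnfr+/+ lungs (adjusted p = 0.0169) and by 2.39 in Tnfr-/- lungs (adjusted p = 0.000124). A second set of Smc4 rose by 1.23 and 1.08 at 72 h in Tnfr+/+ and Tnfr-/- lungs (adjusted p = 0.00543 and 0.0104), and ones of Foxm1 and Kif2c by 1.92 and 1.32 at 72 h in Tnfr-/- lungs (adjusted p = 0.0197 and 0.00399). The reverse held for Cdca3 and Cenpf, as given above, so the choice of probe set changed whether these genes were counted. The sets used for Aurkb, Incenp, Cdc20, Kif22 and Ncaph are of the _x_at type and those for Cks2, Bub3, Prc1 and Stmn1 of the _s_at type, in which probes can match more than 1 sequence. Signals of different probe sets were not compared as levels.

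After 24 h of O3, by contrast, limma called 0 of the 45 genes in either genotype. In Tnfr+/+ lungs 0.0682% of all probe sets rose and 0.0146% fell at 24 h, and in Tnfr-/- lungs 0.726% rose and 0.375% fell. Without Tnfr-/- air replicate 2, Mad2l1 passed in Tnfr-/- lungs (1.26, adjusted p = 0.0463). At an unadjusted p under 0.05, 1 gene was higher (Ttk, 0.70) and 1 lower (Ndc80, at least 1.53-fold, being under the filter level at 24 h) in Tnfr+/+ lungs, against 5.89% of all probe sets in either direction, and 8 were higher and 3 lower in Tnfr-/- lungs, against 12.5%. The unadjusted t-test of the study's methods at the same threshold gave 4 genes in Tnfr+/+ and 5 in Tnfr-/- lungs, against 6.04% and 13.6% of all probe sets. Exposed and air arrays did not overlap for 2 genes above air and 3 below it in Tnfr+/+ lungs, and for 6 above and 3 below in Tnfr-/- lungs, where 5.84% and 10.8% of all probe sets were above air in this way and 6.07% and 11.1% below. The median difference was 0.00 in Tnfr+/+ and 0.02 in Tnfr-/- lungs. In Tnfr-/- lungs the leading genes after Cks1b were Mad2l1 and Kif23, at 0.89 ± 0.30 and 1.03 ± 0.36 (adjusted p = 0.189 and 0.217).

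Between exposure times, genes passed the test in the step from 24 h to 48 h. In Tnfr+/+ lungs 10 genes were higher at 48 h than at 24 h, against 0.161% of all probe sets, led by Cdca3, whose difference was 1.71 (adjusted p = 0.00211). The Tnfr-/- lungs had 17 higher genes, against 0.287%, led by Ube2c with 1.90 (adjusted p = 6.35e-05). All 48 h arrays were above all 24 h arrays for 30 genes in Tnfr+/+ and 36 in Tnfr-/- lungs, against 6.78% and 9.54% of all probe sets. These counts depended on single arrays. The 17 fell to between 3 and 11 when any 1 of the 6 arrays of that step was left out, and Plk1, Ube2c and Anln passed in each case. The 10 fell to 6 without Tnfr+/+ O3 24 h replicate 3 or without Tnfr+/+ O3 48 h replicate 1 or 2, and with the 6 arrays of a step fitted alone limma called 0 in both genotypes, against 0% and 0.0146% of all probe sets, with 28 and 34 at an unadjusted p under 0.05, against 6.85% and 11.4%. From 48 h to 72 h limma called 0 of the 45 genes in both genotypes, where 0% and 0.00487% of all probe sets rose. At an unadjusted p under 0.05, 13 and 16 genes were higher at 72 h, against 8.55% and 5.36% of all probe sets in either direction, and the methods' t-test at that threshold gave 7 and 17, against 4.37% and 7.04%. The arrays did not overlap for 16 and 25 genes, against 4.95% and 6.51% of all probe sets, and the median further difference was 0.40 and 0.41. In Tnfr+/+ lungs Ube2c had the smallest adjusted p, with 0.89 (adjusted p = 0.105), and in Tnfr-/- lungs Cdc20 and Ube2c did, with 1.20 and 0.98 (adjusted p = 0.108 for both).

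The genotypes were compared directly to ask whether the rise differed without TNF receptors. In O3, limma called 0 of the 45 genes at 48 h and 72 h, against 0.166% and 0.161% of all probe sets, and 1 at 24 h. That gene was Ube2c, lower in Tnfr-/- lungs with a log2 difference of -0.94 ± 0.18 (95% confidence interval -1.31 to -0.56, adjusted p = 0.0179), where 0.419% of all probe sets were lower and 0.584% higher. Its signals at 24 h were 201, 226 and 215 in Tnfr+/+ and 112, 125 and 99.7 in Tnfr-/- lungs, without overlap. The call was lost without Tnfr+/+ O3 24 h replicate 2 or 3 or Tnfr-/- O3 24 h replicate 1 or 3, with an adjusted p of up to 0.0759. At an unadjusted p under 0.05, 1 gene was higher and 5 lower in Tnfr-/- lungs at 24 h, 2 were higher at 48 h, and 1 was higher (Aurka) and 1 lower (Kif4) at 72 h. The same threshold took in 14%, 10.8% and 11.1% of all probe sets. The methods' t-test gave 2 genes at each of 48 h and 72 h, against 10.1% and 5.61% of all probe sets. After Ube2c, the leading gene at 24 h was Ttk at -0.76 ± 0.27 (adjusted p = 0.198). Melk followed, but all 6 of its signals at 24 h were under the filter level, so no difference is given for it.

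**Figure D4:**
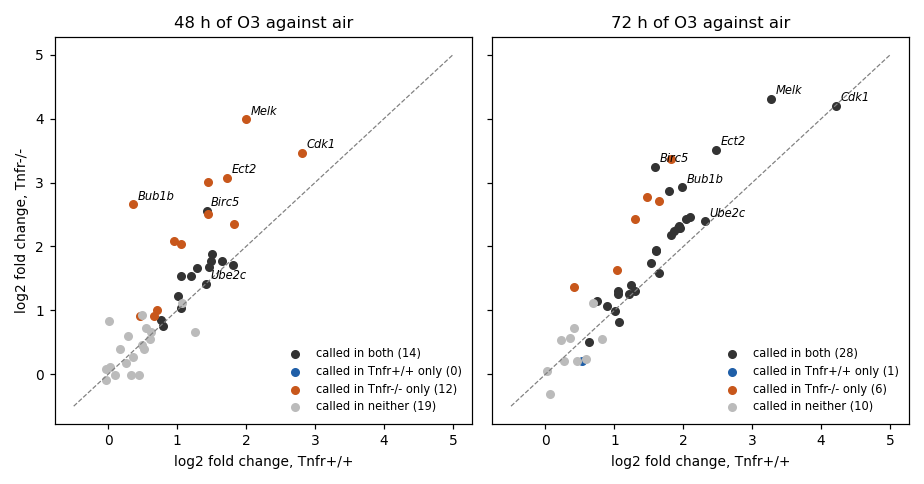
Log2 difference from air in Tnfr-/- lungs (vertical axis) against that in Tnfr+/+ lungs (horizontal axis) for the 45 genes at 48 h and 72 h of O3, each point a gene, the dashed line marking equal differences and colours showing in which genotype the adjusted p was under 0.05. Birc5 lies above the line at both times, with 2.56 against 1.43 at 48 h and 3.25 against 1.60 at 72 h, and Ube2c lies on it at 48 h.

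At 48 h and 72 h the intervals of the difference between genotypes were narrow for some genes and wide for others. At 72 h the 95% interval of the log2 difference, Tnfr-/- minus Tnfr+/+, was -0.15 to 0.44 for Plk1, -0.48 to 0.35 for Top2a, -0.49 to 0.54 for Mki67 and -0.37 to 0.54 for Cdc20. For Cdk1 it was -1.44 to 1.85 and for Ect2 -1.51 to 1.10, so differences between genotypes of over 2-fold in either direction remain within these intervals. Bub1b had the smallest adjusted p at 48 h, higher in Tnfr-/- lungs by 1.82 ± 0.40 (adjusted p = 0.103). Its Tnfr+/+ signals on replicates 2 and 3, 50.46 and 25.04, were under the filter level, so this difference is imprecise. Bub1b passed when Tnfr+/+ O3 48 h replicate 1, the highest of its group, was left out (adjusted p = 0.00706). That fit left only Tnfr+/+ signals under the filter level, so no difference is given for it. At 72 h, 6 genes passed against air in Tnfr-/- but not in Tnfr+/+ lungs (Bub1, Ndc80, Spc25, Kif20a, Kif23 and Hmmr) and Kif4 did the reverse, and the difference between the genotypes passed for none of the 7.

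In filtered air, most of the 45 genes had lower mean signals in Tnfr-/- than in Tnfr+/+ lungs, but none of the differences passed. Limma called 0 of the 45 genes, against 0.0341% of all probe sets lower and 0.0536% higher. At an unadjusted p under 0.05, 4 were lower in Tnfr-/- lungs (Birc5, Ndc80, Kif23 and Ncaph) and 0 higher, against 6.92% of all probe sets in either direction, and the methods' t-test gave 3, against 8.41%. The log2 difference was below 0 for 38 of the 45 genes (84.4%), against 49.2% of all probe sets, with a median of -0.23. The 38 include Melk, Bub1, Bub1b, Nuf2 and Kif20a, which were under the filter level on every air array, so their direction in air is not established. Groups did not overlap for 9 genes lower and 1 higher in Tnfr-/- lungs, against 7.54% and 7.82% of all probe sets. Birc5 was at -1.14 ± 0.30 (95% interval -1.77 to -0.50, adjusted p = 0.257). Kif23 had signals of 152, 139 and 137 in Tnfr+/+ and 30.4, 84.8 and 114 in Tnfr-/- air, a difference of -1.10 ± 0.36 (adjusted p = 0.427). The summed signal of 10 neutrophil markers was also lower in Tnfr-/- air, 2681 to 3302 against 4939 to 5671. This was mostly by way of S100a8 (mean 524.5 against 1409) and S100a9 (519.3 against 1386). Csf3r, Mmp8, Mmp9, Ngp and Ltf were also lower, while Cxcr2 was higher. Camp was under the filter level on every array, and the Elane means, 48.15 against 45.21, were under it too, so neither is read as higher. The sum of 9 liver markers was lower too, 368.9 to 745.3 against 979.3 to 2126. The part of these markers in the differences of the mitosis genes was not tested.

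The interaction of genotype and O3, which is the difference from air in Tnfr-/- lungs minus that in Tnfr+/+ lungs, passed limma's test for 0 of the 45 genes at 24, 48 and 72 h, against 0.00974%, 0% and 0.00487% of all probe sets. At an unadjusted p under 0.05, 4 genes were above 0 and 2 below at 24 h, 2 above at 48 h and 3 above at 72 h, against 6.22%, 5.51% and 5.31% of all probe sets, and the methods' t-test gave 4, 3 and 3, against 7.89%, 7.25% and 4.6%. The medians were 0.12, 0.22 and 0.32. The same air arrays enter all 3 interactions. Birc5 had an interaction of 1.65 ± 0.43 at 72 h (95% interval 0.75 to 2.55, adjusted p = 0.797). Bub1b led at 48 h, but no interaction is given for it, since it was under the filter level on all air arrays of both genotypes. For Ube2c at 48 h it was -0.0014 with an interval of -0.53 to 0.53.

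**Figure D5:**
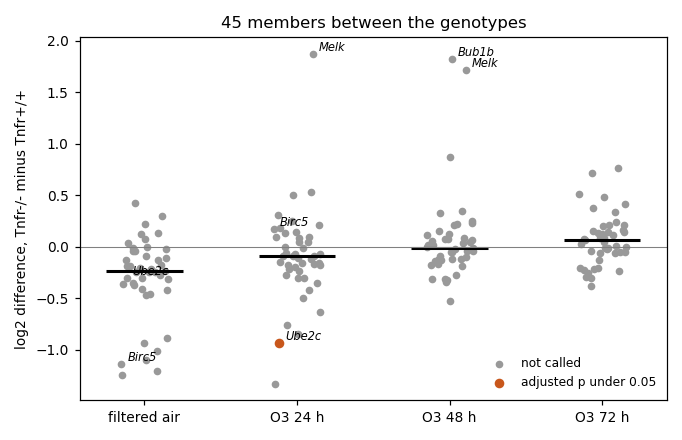
Log2 difference between Tnfr-/- and Tnfr+/+ lungs of each of the 45 genes in air and after 24, 48 and 72 h of O3, 1 point for each gene. The medians are -0.23 in air, -0.09 at 24 h, -0.01 at 48 h and 0.07 at 72 h, and the filled point is Ube2c at 24 h.

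Other genes of cell division, outside the list, also rose at the late times. Of 76 such genes, 52 had a probe set of their own and 48 were tested. Of these, 7 and 13 rose at 48 h and 72 h in Tnfr+/+ lungs and 13 and 18 in Tnfr-/- lungs, with 0 falling. Of all probe sets, 0.901%, 1.84%, 2.6% and 2.6% rose in the same order, and 0.273%, 1.26%, 1.24% and 1.36% fell. Their median differences were 0.27 and 0.52, and 0.50 and 0.78, against -0.013, -0.015, -0.032 and -0.032 over all probe sets. This list, too, was chosen with earlier results of these data known. Ccna2 (cyclin A2) had signals of 179, 220.4 and 242 in Tnfr+/+ air, from lowest to highest, and 668, 807 and 988 at 72 h, without overlap, and rose by 2.42 at 72 h in Tnfr-/- lungs (adjusted p = 5.82e-07). Ccnb2 (cyclin B2), a partner of Cdk1, rose by 1.38 and 1.39 at 48 h in Tnfr+/+ and Tnfr-/- lungs (adjusted p = 0.000723 and 0.000236), and the other mitotic cyclin B, Ccnb1, had no probe set of its own. Pbk, a mitotic kinase, rose by 1.96 and 2.12 at 72 h (adjusted p = 3.18e-06 and 8.97e-07) and Cep55, which organises the final cut between daughter cells, by 2.03 in Tnfr+/+ lungs (adjusted p = 0.000175). Pttg1 (securin), the inhibitor of the separase encoded by Espl1, differed by genotype. It was lower in Tnfr-/- lungs in air, with a log2 difference of -3.04 (adjusted p = 1.78e-09). At 24, 48 and 72 h of O3 it was lower there too, by -3.21, -2.26 and -1.38 (adjusted p = 6.8e-10, 2.94e-07 and 0.000392). Against air, Pttg1 rose by 1.10 at 72 h of O3 in Tnfr-/- lungs (adjusted p = 0.000443), against -0.57 in Tnfr+/+ lungs (adjusted p = 0.0625).

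Cell type markers also differed from air, some of them at 24 h already. For the counts of markers that rose or fell, the shares of all probe sets are as follows. In Tnfr+/+ lungs 0.901% and 1.84% rose and 0.273% and 1.26% fell at 48 h and 72 h. In Tnfr-/- lungs 2.6% rose at each time, and 1.24% and 1.36% fell. Summed signals of 12 alveolar macrophage markers were 13280 to 17160 in Tnfr+/+ air, 16150 to 16920 at 24 h, 19910 to 37490 at 48 h and 20370 to 25480 at 72 h, and 4 of the 12 rose at each late time, with 1 falling at 72 h. The 37490 is the array with thymocyte markers, and without Fabp4 the 48 h sums were 19500 to 25320, against 13110 to 15940 in air. In Tnfr-/- lungs the sums were 15600 to 16590, 18080 to 21280, 25500 to 27750 and 22480 to 24730, and 3 rose at each late time. In both genotypes the late macrophage sums lay above air, and those of 72 h overlapped or lay below those of 48 h. Chil3 weighed most in them, with means of 5505, 9715 and 9642 in air, at 48 h and at 72 h in Tnfr+/+ lungs. Its means in Tnfr-/- lungs were 5416, 13140 and 10840. Mertk was lower than in air at both late times in both genotypes, as were Fabp4 in Tnfr-/- lungs and Krt79 at 72 h in Tnfr+/+ lungs. The sums are thus not a measure of cell number, and Car4 is in both the macrophage and the endothelial list. Each of the 12 macrophage markers reached the filter level on at least 1 array. The summed signals of 12 endothelial markers were 37370 to 44710 in Tnfr+/+ air and 29410 to 33780 at 72 h, and 33980 to 40030 and 29470 to 31210 in Tnfr-/- lungs, and 2 of the 12 fell at 72 h in Tnfr+/+ and 1 in Tnfr-/- lungs. Summed ciliated cell markers were also lower at 72 h without overlap, at 3090 to 4232 against 6256 to 6911 in Tnfr+/+ air and at 3888 to 4942 against 6664 to 6942 in Tnfr-/- air, and 1 of the 6 fell in each genotype. The sums of 7 alveolar type 1 markers lay below the air range in both genotypes, at 55110 to 57520 against 63230 to 65630 in Tnfr+/+ and at 56530 to 59040 against 64390 to 65570 in Tnfr-/- lungs, with 2 and 0 of the 7 falling. Fibroblast sums over 10 markers were 45870 to 49320 in air and 37620 to 39100 at 72 h in Tnfr+/+ lungs, and 43520 to 46850 and 36440 to 41750 in Tnfr-/- lungs, with 1 and 0 falling. Those of 8 club cell markers were 138700 to 145900 and 107400 to 128700 in Tnfr+/+ lungs, and overlapped in Tnfr-/- lungs, at 134400 to 146400 and 130000 to 141500, with 0 falling in either. In Tnfr-/- lungs at 24 h, sums were already below air for ciliated (4266 to 4998), alveolar type 1 (56710 to 57670) and fibroblast markers (36970 to 39780). The endothelial and club cell sums overlapped air there, as did the sums of all these lists in Tnfr+/+ lungs at 24 h. By limma, 0 of the tested markers of thymocytes, T cells and neutrophils rose at 48 h or 72 h in either genotype. The part of these cells in the rise of the mitosis genes was not tested.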

How the data were processed

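The authors homogenized lung in Trizol, hybridized 1 MOE430A array per mouse and deposited a table of MAS5 signal intensities made with Affymetrix Expression Console (versions not given in the sources used here). Here the 24 arrays were quantile normalized with a floor of 1 before the log2 transform. The 64 control probe sets were left out, and 20537 of 22644 probe sets were kept that reached the 20th percentile of all signals (52.2) on at least 1 array. Genes came from the platform annotation, which gave 20338 probe sets 1 gene, and 691 probe sets with several genes named none. For 20309 of the 20338 the name used was the current RefSeq symbol matched by Entrez ID. limma 3.58.1 in R 4.3.3 fitted 8 group means to all 24 arrays (16 residual and 2.38 prior degrees of freedom) for 17 comparisons, two-sided, with Benjamini-Hochberg adjustment over the kept probe sets. Where a group was under that level on all 3 arrays, a lower bound against the level replaced the difference. Genes named were up to 12 called with the smallest adjusted p in a comparison or, with under 3 called, the 3 with the smallest p, plus those the study names, those against the list's median, the highest of each role, and others by role. Alternatives were the deposited values, cyclic loess, a floor of 32, no filter, the mean of a gene's probe sets, the comparison's arrays alone, the methods' t-test, a replicate block and leaving out each array. The fit was tested on simulated data. The members and lists were chosen with earlier results of these data known. Precision is limited by the 3 arrays of a group.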

Additional observations from a re-analysis of the deposited data

How the results depend on the processing

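The counts of mitosis genes that passed against air stayed within 1.5 times their main value in all 17 comparisons with the deposited values, cyclic loess, no filter, the mean of a gene's probe sets and the replicate block, and no direction turned among the settings run. With the arrays of the comparison alone the counts were 0 and 2 at 48 h and 72 h in Tnfr+/+ lungs, 0 for the genotypes at 24 h, and 0 for the step from 24 h to 48 h in both genotypes. The methods' t-test after Benjamini-Hochberg adjustment gave 0 and 0 at 48 h and 72 h in Tnfr+/+ lungs, 5 and 8 in Tnfr-/- lungs, 0 for the genotypes at 24 h and 0 for both steps to 48 h. At an unadjusted p under 0.05 it gave 28, 32, 34, 37, 3, 27 and 33 in the same order, against 9.46%, 10.9%, 22.1%, 17.3%, 14.4%, 7.23% and 11% of all probe sets. By construction both settings give the same differences with fewer residual degrees of freedom. A floor of 32 gave 1 gene (Bub1b) for the genotypes at 48 h. Leaving out 1 array gave 8 to 17 genes at 48 h and 22 to 27 at 72 h in Tnfr+/+ lungs, 22 to 29 and 29 to 35 in Tnfr-/- lungs, 0 to 1 at 24 h in Tnfr-/- lungs, 0 to 1 for the genotypes at 24 h and at 48 h, 6 to 12 for the step to 48 h in Tnfr+/+ and 3 to 17 in Tnfr-/- lungs. Without any 1 array, 8 of 14, 20 of 29, 22 of 26 and 27 of 34 calls against air held each time, and the cause of the other losses was not tested. The added setting, leaving out Tnfr+/+ O3 72 h replicate 1 in comparisons that do not use it, was chosen after seeing the data. Replicate numbers are shared by the groups, and the labels give no pairing. Deviations of same-numbered arrays correlated at -0.181 to 0.115 (median 0.00462, 84 pairs). Those of arrays with other numbers correlated at -0.129 to 0.201 (median -0.00167, 168 pairs). With 3 arrays a group, such values show no sign of a pairing but cannot exclude one. With the replicate block the counts were 14 and 29 in Tnfr+/+ and 26 and 34 in Tnfr-/- lungs at 48 h and 72 h, 1 for the genotypes at 24 h, and 9 and 14 for the steps to 48 h. Genes with signals near the filter level have imprecise differences.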
